A study of Drosophila melanogaster with 3 samples.

Results

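The regions described here were stretches of the Drosophila autosomes at which a Pita peak and a ZIPIC peak overlapped but did not share a centre. Both proteins were mapped by chromatin immunoprecipitation and sequencing (ChIP-seq) in S2 cells, an embryo-derived Drosophila line, with 1 library from anti-ZIPIC antibodies, 1 library from anti-Pita antibodies and 1 library of input DNA as the common control. The cells carried no mutation or treatment that the labels name, and no value below has a replicate. A pair was a Pita peak on arm 2L, 2R, 3L or 3R with 1 bp or more in common with a ZIPIC peak, joined to the ZIPIC peak with the largest overlap. Pairs whose interval middles lay over 100 bp apart were kept. They numbered 351 of the 1078 overlapping pairs on these arms (32.6%), and the remaining 727 pairs are called centred. They held 339 distinct ZIPIC peaks, 16.0% of the 2125 autosomal ZIPIC peaks, and 351 Pita peaks, 15.6% of the 2245 autosomal Pita peaks. The whole lists held 3047 ZIPIC peaks and 2768 Pita peaks. Members were chosen by the overlap and the distance between the middles of these same intervals, so positions, widths and the p-values of the same peaks are given as descriptions without a test. Ranges in brackets after a share are exact 95% binomial (Clopper-Pearson) intervals, which cover counting error only.

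Insulators are DNA elements that limit the reach of enhancers and of silenced chromatin, and in Drosophila they are bound by zinc-finger proteins that recruit shared cofactors. Pita and ZIPIC belong to this class. Both contain a ZAD domain, which is known for protein dimerisation, and a row of C2H2 zinc fingers that contact DNA, and both bind CP190, a BTB-domain cofactor of insulator complexes. Peak calling turns the sequenced fragments around a bound site into an interval, and the interval spans a site together with the flanks covered by its fragments or several neighbouring sites. The middle of an interval is therefore only a coarse measure of where a protein sat. The lists give no summits, reads or fold over input, so position is the interval middle and strength is the −log10 of the caller's p over input.

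The study built synthetic repeats of a binding site for each protein, and 1 repeat unit of each is given because a question behind overlapping but offset peaks is whether unlike sites lie side by side. Both units are read 5′ to 3′ from designed oligonucleotides and not from the genome. The ZIPIC unit is the repeat as written in its oligonucleotide, and the Pita unit is the reverse complement of the repeat in its own. Capitals mark stretches chosen here as patterns for a search that was not run, 8 bases from CAGC to CCTG for ZIPIC and 17 bases from TAGC onward for Pita, and are not given as the motifs of the proteins.
ZIPIC site unit: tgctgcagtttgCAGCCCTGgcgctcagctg
Pita site unit: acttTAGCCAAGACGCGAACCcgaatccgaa
The marked stretches differ in length and letters. Where such sites lie within the offset regions was not analysed here, because no dm3 genome was used.

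The distances between the middles ran without a gap across the 100 bp limit and had a long tail. The absolute offset had a median of 203.5 bp, quartiles of 138.75 and 302.75 bp, and a range of 101.5 to 837.5 bp. Of the 351 pairs, 108 lay within 150 bp, 182 exceeded 200 bp, 90 exceeded 300 bp and 21 exceeded 500 bp. The centred pairs had a median of 14.5 bp with quartiles of 5.5 and 41.5 bp. The 5 members nearest to the limit had offsets of 101.5 to 102.5 bp and the 5 pairs just below it 99.5 to 100 bp, so the limit divides a continuous spread. At this limit neither direction on the chromosome clearly prevailed. The ZIPIC middle had the higher coordinate in 165 of the 351 offset pairs, 47.0% (41.7 to 52.4), and in 342 of the 727 centred pairs, 47.0% (43.4 to 50.7). Centred pairs with equal middles count here as not higher. With a limit of 50 bp the share was 44.6% (40.2 to 49.1), and across the alternatives run it was 44.6% to 47.4%.

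**Figure D1:**
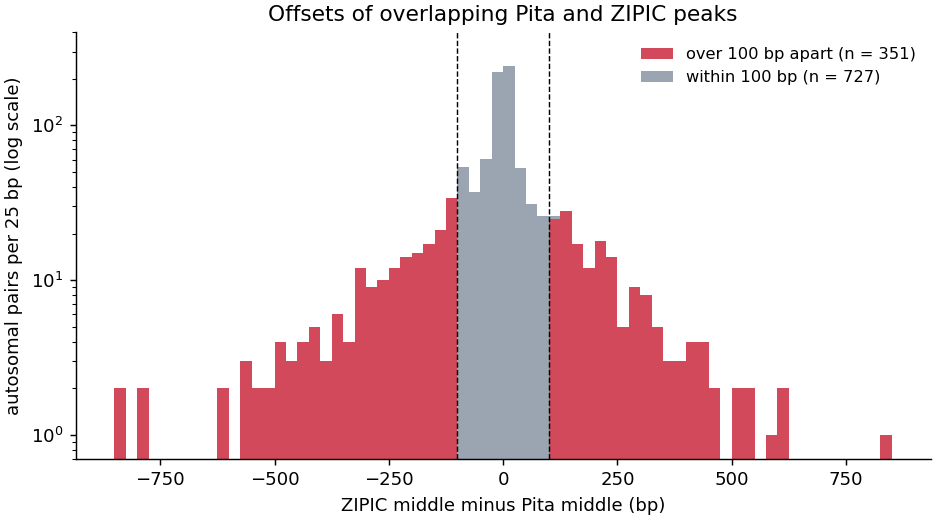
Number of autosomal pairs per 25 bp (log scale) against the ZIPIC middle minus the Pita middle in bp, with the 351 pairs over 100 bp apart in red, the 727 pairs within 100 bp in grey and dashed lines at 100 bp on each side. The counts decline on both sides without a break at the lines, and the largest offset is 837.5 bp.

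The intervals of an offset pair were mostly nested or nearly flush at an end, rather than moved as a whole. The Pita interval lay wholly inside the ZIPIC interval in 178 pairs, 50.7% (45.4 to 56.1), against 275 centred pairs, 37.8% (34.3 to 41.5). The opposite nesting, ZIPIC inside Pita, was found in 29 offset pairs, 8.26% (5.60 to 11.7), against 196 centred pairs, 27.0% (23.8 to 30.3). The remaining 144 offset pairs, 41.0% (35.8 to 46.4), were staggered, with each interval reaching past the other at an opposite end. Many pairs had 1 boundary nearly common to both proteins, though fewer than among the centred pairs. The nearer pair of edges lay within 10 bp in 126 offset pairs, 35.9% (30.9 to 41.2), against 353 centred pairs, 48.6% (44.9 to 52.3). It lay within 20 bp in 180 offset pairs, 51.3% (45.9 to 56.6), against 514 centred pairs, 70.7% (67.2 to 74.0), and within 50 bp in 259 offset pairs, 73.8% (68.9 to 78.3), against 679 centred pairs, 93.4% (91.3 to 95.1). At the nearer edge the intervals differed by 19 bp in median and at the other edge by 423 bp, with quartiles of 287 and 618 bp for the longer difference. The centred pairs, whose middles by the rule cannot be far apart, differed by 11 and 38 bp at these edges.

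Displacement of a whole interval was found in a minority of offset pairs. Both ends of the ZIPIC interval were shifted the same way by over 50 bp in 41 offset pairs, 11.7% (8.51 to 15.5). The same held in 6 of the 727 centred pairs, 0.825% (0.303 to 1.79), where the 100 bp limit leaves little room for such a shift. In 305 of the 351 pairs, 86.9% (82.9 to 90.2), the Pita middle still lay inside the ZIPIC interval. The reverse was less frequent, since the ZIPIC middle lay inside the Pita interval in 145 pairs, 41.3% (36.1 to 46.7). Neither middle lay inside the other interval in 9 pairs, 2.56% (1.18 to 4.81). Offset in these lists was thus mainly a long extension of 1 interval beyond 1 end of the other.

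**Figure D2:**
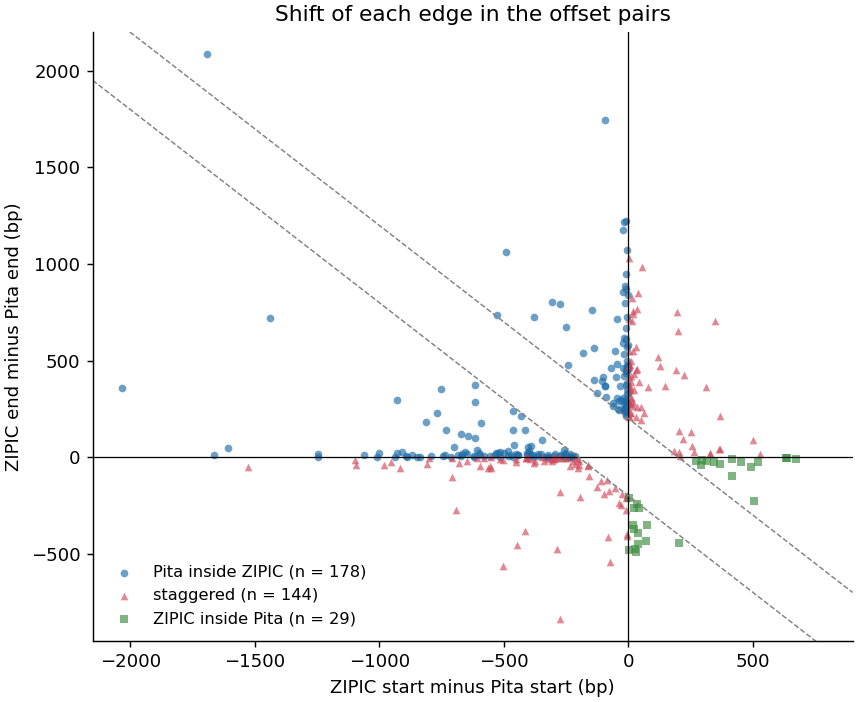
ZIPIC start minus Pita start against ZIPIC end minus Pita end, both in bp, for the 351 offset pairs, with symbols for the 178 pairs with Pita inside ZIPIC, the 144 staggered pairs and the 29 pairs with ZIPIC inside Pita; dashed lines mark middles exactly 100 bp apart. Points gather along the zero lines, where 1 edge is nearly common: 180 of the 351 pairs have an edge difference within 20 bp.

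The extension was mostly on the ZIPIC side. ZIPIC intervals of offset pairs had a median width of 745 bp, with quartiles of 510 and 1006.5 bp and a range of 104 to 4330 bp. Their Pita partners had a median of 328 bp, with quartiles of 202 and 542 bp and a range of 88 to 1792 bp. The ZIPIC interval was the wider of the pair in 285 of 351 offset pairs, 81.2% (76.7 to 85.1), against 428 of 727 centred pairs, 58.9% (55.2 to 62.5). In the centred pairs the median widths were 289 bp for ZIPIC and 269 bp for Pita. Across all autosomal peaks they were 366 bp for ZIPIC and 265 bp for Pita. Part of this follows from the rule, since a Pita interval inside a ZIPIC interval can be offset by over 100 bp only where ZIPIC is over 200 bp wider. By the study's methods the ZIPIC library also had more unique reads than the Pita library, and the part of depth in these widths was not tested. ZIPIC intervals over 1000 bp made up 90 of the offset pairs, 25.6% (21.2 to 30.5), and 17 of the centred pairs, 2.34% (1.37 to 3.72).

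Read from the width of the peak, the share of overlapping pairs that were offset rose steeply with the ZIPIC width and more shallowly with the Pita width. It was 9.26% (6.67 to 12.4) for ZIPIC intervals up to 300 bp, 19.1% (14.3 to 24.8) up to 500 bp, 49.0% (41.7 to 56.3) up to 750 bp, 67.5% (58.4 to 75.6) up to 1000 bp and 84.1% (75.8 to 90.5) above that. For the same classes of Pita width it was 27.7% (24.0 to 31.6), 31.8% (26.5 to 37.4), 43.9% (35.9 to 52.1), 51.1% (35.8 to 66.3) and 52.6% (28.9 to 75.6). Across the 351 offset pairs, the absolute offset and the ZIPIC width had a Spearman correlation of 0.57, and the absolute offset and the Pita width one of -0.05. In the 29 pairs with ZIPIC inside Pita this was the other way, 0.03 for the ZIPIC width and 0.57 for the Pita width. Widths of the 2 partners were weakly related over all offset pairs (Spearman rho = 0.12, n = 351) and closely related in centred pairs (rho = 0.79, n = 727). The pooled offset value mixes kinds of pair. It was 0.53 with Pita inside ZIPIC (n = 178), 0.22 in staggered pairs (n = 144) and 0.32 with ZIPIC inside Pita (n = 29). Width limits how far apart the middles of overlapping intervals can lie, so part of the rise with width lies in the rule. The shares and the correlations are across peaks from the same libraries and input, are partly set by the rule, and are given as descriptions.

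Measured in bases, the largest part of the offset pairs was sequence of the ZIPIC interval outside its joined Pita peak. Summed over pairs, 167 kb lay in the ZIPIC interval alone, 112 kb in both and 29.3 kb in the Pita interval alone, a ratio of ZIPIC-only to Pita-only bases of 5.72. In centred pairs the sums were 44.6 kb in ZIPIC alone, 221 kb in both and 20.9 kb in Pita alone, a ratio of 2.14. Alone here means outside the joined partner, so bases under a second Pita peak still count as ZIPIC alone. The ZIPIC peak overlapped 2 Pita peaks in 32 offset pairs, which raises the ZIPIC sum and the ratio. A ZIPIC interval joined to more than 1 Pita peak also enters such a sum for each of them. The overlap itself had a median of 254 bp in offset pairs and 234 bp in centred pairs. As a share of the union it was 36.4% in offset pairs and 82.5% in centred pairs in median.

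Inside the wide ZIPIC intervals, the Pita interval sat at an end more often than near the centre. For this view every pair was taken in which Pita lay inside a ZIPIC interval over 200 bp wider, offset or not, which gave 218 pairs, 178 of them offset and 40 centred. The distance between the middles was expressed as a percentage of the most the ZIPIC interval allowed, so that 0 is centred and 100 is flush with an end. Its median was 90.3%, and 132 of the 218 pairs (60.6%) fell in the outermost 20% of this scale. The other 4 classes of equal size, counted outward from the centre, held 15, 23, 20 and 28 pairs. Among the 140 pairs in which ZIPIC was over 400 bp wider, the outermost class held 83 pairs (59.3%). The share was the same in the stronger and the weaker ZIPIC peaks of the 218 pairs, with 66 of 109 (60.6%) in each. It was 64 of 109 (58.7%) in the stronger and 68 of 109 (62.4%) in the weaker Pita peaks. In the mirror case, 45 pairs in which ZIPIC lay inside a Pita interval over 200 bp wider, 23 (51.1%) fell in the outermost class.

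**Figure D3:**
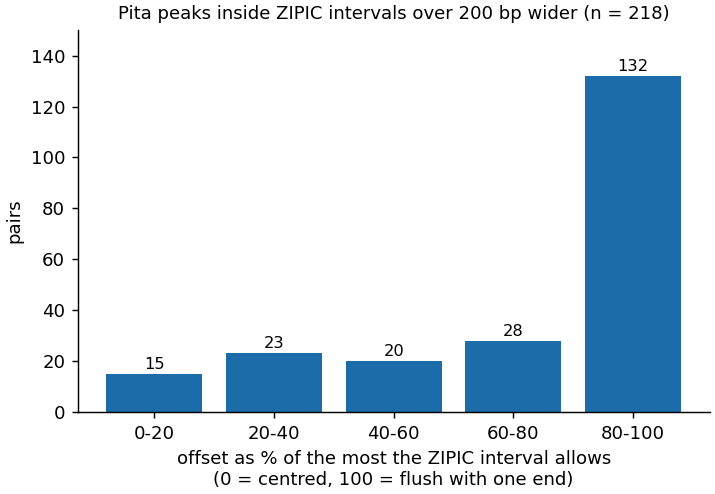
Number of pairs in each of 5 classes of the Pita position inside the ZIPIC interval, for the 218 pairs with Pita inside a ZIPIC interval over 200 bp wider; the x axis is the offset as a percentage of the most the interval allows. The outermost class holds 132 pairs and each of the others between 15 and 28.

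The pairs with the greatest offsets mostly had Pita inside a wide ZIPIC interval. The largest was a Pita peak at chr3R:108073-108424 (352 bp, −log10 p of 54.6) inside a ZIPIC interval at chr3R:106040-108782 (2743 bp, −log10 p of 10.1), with the ZIPIC middle 837.5 bp to the lower side. ZIPIC reached 2033 bp past the Pita start and 358 bp past the Pita end. Next came a Pita peak of 196 bp at chr3R:17094713-17094908 inside a ZIPIC interval of 2036 bp at chr3R:17094619-17096654, offset by 826 bp the other way. In 9 of the 10 pairs with the largest offset (577.5 to 837.5 bp) Pita lay inside ZIPIC, the ZIPIC width was 1391 to 2939 bp, and in 6 the nearer edges agreed within 20 bp. An example is chr3R:16153024-16153846 for Pita against chr3R:16151777-16153849 for ZIPIC, where the ends differed by 3 bp and the starts by 1247 bp. Another is chr2R:8310986-8311259 for Pita against chr2R:8310977-8312482 for ZIPIC, where the starts differed by 9 bp and the ends by 1223 bp. The −log10 p of these extreme pairs ran between 4.75 and 36.8 for ZIPIC and between 4.42 and 75.0 for Pita. Most of the ZIPIC values lay below the median of 10.8 for all offset pairs. The Pita values lay on both sides of their median of 20.0.

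The pairs with the longest staggered ends came nearest to displacement of whole intervals, though some of them, including the first 2 named here, held a peak with 2 partners. At chr3L:17468010-17468818 (ZIPIC, −log10 p of 5.78) and chr3L:17468512-17469380 (Pita, −log10 p of 44.3) the starts were 502 bp and the ends 562 bp apart in the same direction. That ZIPIC interval also overlapped a Pita peak at chr3L:17467978-17468248 (68.4). At chr2L:16287177-16287878 (ZIPIC, 6.41) and chr2L:16287626-16288331 (Pita, 71.8) intervals of nearly equal width, 702 and 706 bp, were shifted by 449 bp at the start and 453 bp at the end. This Pita interval also overlapped a ZIPIC peak at chr2L:16288135-16288274 (7.16). The longest stagger with 1 partner each way was ZIPIC at chr3L:12482887-12483413 (4.24) and Pita at chr3L:12483303-12483796 (5.89), with an offset of 399.5 bp. The 10 longest staggers had offsets of 290.5 to 555.5 bp. Being chosen for the smaller of their 2 edge shifts, these 10 could not have a nearly common edge. Their ZIPIC −log10 p was 4.24 to 21.8 and their Pita −log10 p 4.93 to 113.

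Strength differed by the kind of pair. Over all offset pairs the median −log10 p was 10.8 for ZIPIC (quartiles 6.50 and 20.2) and 20.0 for Pita (quartiles 7.51 and 38.2). Centred pairs had medians of 12.4 for ZIPIC and 15.2 for Pita, and autosomal peaks without an overlap 5.95 for ZIPIC and 10.5 for Pita. A p-value also reflects the depth of its library, so peaks are ranked below as percentiles within the autosomal peaks of their own list. Where Pita lay inside ZIPIC, the median percentile was 76.0 for ZIPIC and 48.3 for Pita. Where ZIPIC lay inside Pita, it was 40.6 for ZIPIC and 83.6 for Pita. Staggered pairs fell between, with 56.9 for ZIPIC and 69.3 for Pita. The enclosing interval was thus usually the better ranked: ZIPIC had the higher percentile in 157 of the 178 pairs with Pita inside, 88.2% (82.5 to 92.5), in 69 of the 144 staggered pairs, 47.9% (39.5 to 56.4), and in 4 of the 29 pairs with ZIPIC inside, 13.8% (3.89 to 31.7). Centred pairs showed the same order, with 254 of 275 (92.4%), 178 of 256 (69.5%) and 46 of 196 (23.5%).

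**Figure D4:**
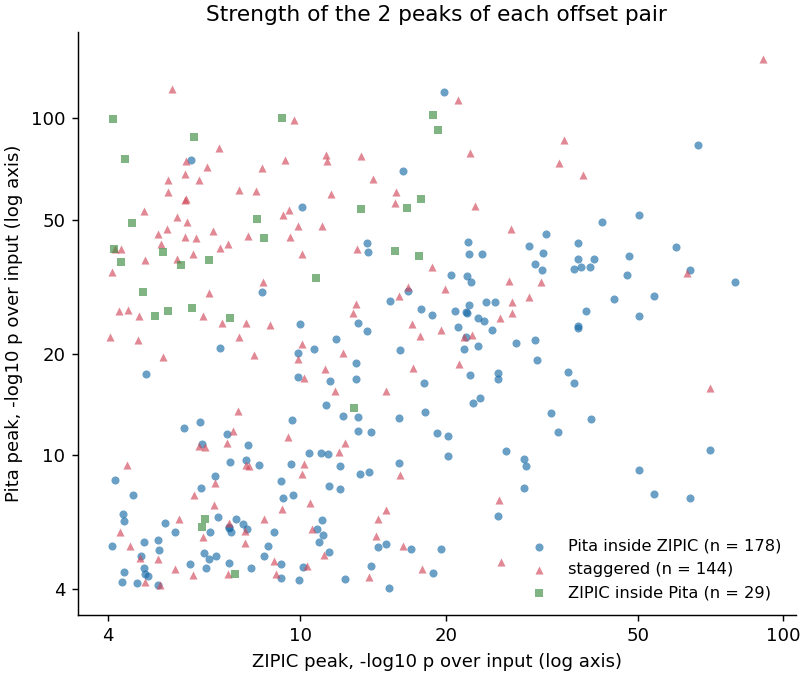
The −log10 p over input of the ZIPIC peak against that of the Pita peak (both axes logarithmic) for the 351 offset pairs, by the way the intervals lie. Pairs with ZIPIC inside Pita (n = 29) sit at the upper left with medians of 6.47 for ZIPIC and 40.1 for Pita, and pairs with Pita inside ZIPIC (n = 178) run up the diagonal with medians of 13.8 and 11.9.

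How far the strengths of the partners went together differed between the ways the intervals lay, and is given as a description across peaks. Spearman's rho between the ZIPIC and the Pita −log10 p was 0.64 in the 178 offset pairs with Pita inside ZIPIC. In staggered pairs it was 0.06 (n = 144) and in pairs with ZIPIC inside Pita 0.21 (n = 29). Over all offset pairs it was 0.20, against 0.27 in centred pairs. The centred pairs with Pita inside ZIPIC gave 0.67 (n = 275). The peaks of both proteins share 1 input library, and the part of that in these correlations was not tested. With Pita inside ZIPIC, which peak ranked higher was also nearly fixed, being ZIPIC in 88.2% of offset and 92.4% of centred pairs. Such a selection can by itself raise a correlation. How much of the 0.64 and the 0.67 comes with the grouping was not tested.

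Offset pairs were found at every level of strength. With all 1078 pairs cut into 4 equal classes by the ZIPIC −log10 p, weakest first, the share offset was 36.7% (30.9 to 42.7), 35.3% (29.6 to 41.4), 27.1% (21.9 to 32.9) and 31.1% (25.6 to 37.0). With 4 classes by the Pita −log10 p it was 30.7% (25.3 to 36.6), 27.9% (22.6 to 33.7), 38.3% (32.5 to 44.4) and 33.3% (27.7 to 39.3). Neither ordering was monotonic, and neighbouring intervals overlapped. A p-value of 1e-05 or more was listed for ZIPIC in 35 offset pairs, 9.97% (7.04 to 13.6), and for Pita in 34, 9.69% (6.80 to 13.3). The centred pairs had similar shares, with 74 (10.2%) for ZIPIC and 83 (11.4%) for Pita. Within the strongest 25% of both autosomal lists were 51 offset pairs (14.5%) and 117 centred pairs (16.1%), and within the strongest 10% of both were 6 offset and 24 centred pairs, counts too small to set the groups apart.

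The strongest offset pair by either list was the same. At chr3R:27046322-27047344 ZIPIC had a −log10 p of 90.9 and ranked 5 among its autosomal peaks, and at chr3R:27046312-27047043 Pita had 151 and also ranked 5. Their starts differed by 10 bp and their ends by 301 bp, which put the middles 155.5 bp apart. The second by the weaker of the 2 values, ZIPIC at chr3L:8108521-8109511 (66.7) and Pita at chr3L:8108936-8109372 (83.2), had Pita inside ZIPIC with an offset of 138 bp. Of the 10 strongest in both lists, 8 had Pita inside ZIPIC, 2 were staggered and 6 had edges within 20 bp. Of the 10 with the strongest ZIPIC peaks, 7 had Pita inside ZIPIC and ZIPIC was wider in all 10. Of the 10 with the strongest Pita peaks, ZIPIC lay inside Pita in 5 and was wider in 3. An example is the Pita peak at chr3L:4840082-4840890 (809 bp, 92.1), whose ZIPIC partner at chr3L:4840086-4840411 (326 bp, 19.3) started 4 bp later and ended 479 bp earlier. Another is the Pita peak at chr3R:22143466-22144299 (99.6), which enclosed a ZIPIC interval at chr3R:22143781-22144279 with a −log10 p of 4.10, close to the limit of the list.

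Several partners at 1 place were more frequent in offset than in centred pairs. Either peak overlapped 2 peaks of the other list in 39 of 351 offset pairs, 11.1% (8.02 to 14.9), against 18 of 727 centred pairs, 2.48% (1.47 to 3.88). The largest number of partners was 2. The ZIPIC peak overlapped 2 Pita peaks in 32 offset pairs and the Pita peak overlapped 2 ZIPIC peaks in 9, with 2 pairs in both. An interval with 2 partners cannot be centred on both, so part of this contrast lies in the rule.

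In 12 cases 1 ZIPIC interval was the partner of 2 offset Pita peaks, which together made 24 members. These regions were picked out after the values were seen. In 11 of the 12 the Pita middles lay on opposite sides of the ZIPIC middle. Over all 12 the Pita middles were 596.25 bp apart in median, between 460.5 and 833 bp. Much of this lies in the rule. Both Pita peaks had to overlap the ZIPIC interval with middles over 100 bp from its middle, which leaves little room for both on 1 side. Middles on opposite sides are then over 200 bp apart. A clear case is ZIPIC at chr3R:23089156-23089912 (−log10 p of 63.9), whose ends nearly coincided with the outer ends of Pita peaks at chr3R:23089162-23089466 (35.4) and chr3R:23089686-23089888 (7.43). The ZIPIC interval at chr3R:11924851-11925737 (25.7) likewise spanned Pita peaks at chr3R:11924856-11925238 (6.57) and chr3R:11925446-11925725 (17.5), with outer ends 5 and 12 bp apart. At chr3R:6175731-6176870 a weak ZIPIC interval (5.81) overlapped strong Pita peaks at chr3R:6175718-6176045 (57.5) and chr3R:6176327-6176918 (74.8), which reached 13 and 48 bp past its ends. The exception was the 2036 bp ZIPIC interval at chr3R:17094619-17096654, in which both Pita middles lay on the lower side, at 826 and 105 bp from the ZIPIC middle. At 1 of the 12, chr3R:6089879-6090049, the Pita intervals overlapped each other. The ZIPIC interval there was narrow (171 bp), lay inside the lower Pita interval near its upper end, and partly overlapped the other.

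**Figure D5:**
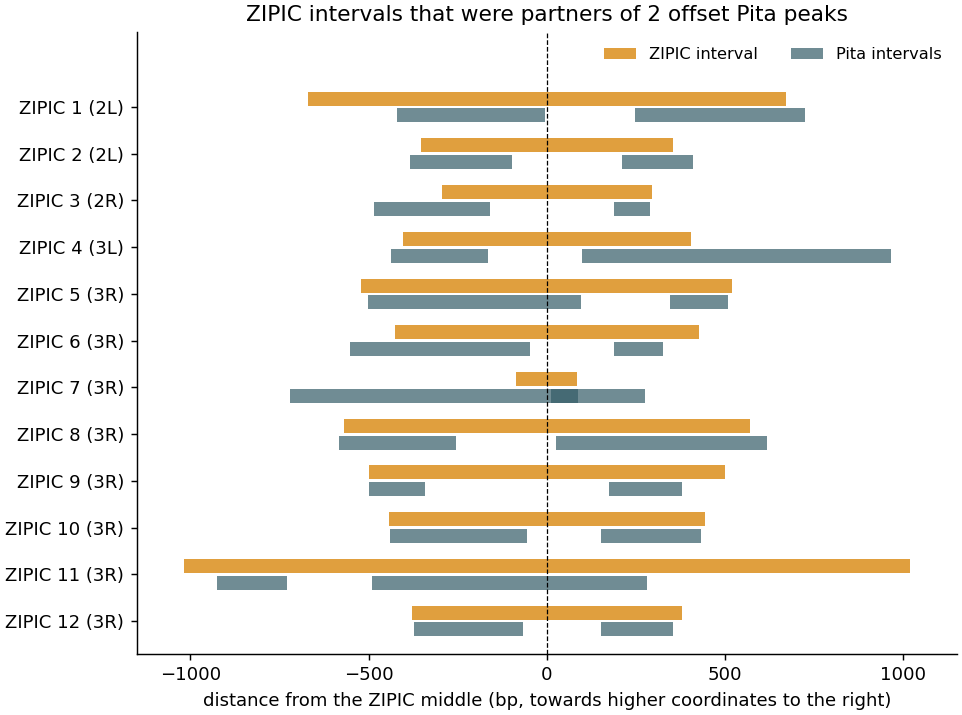
The 12 ZIPIC intervals that were partners of 2 offset Pita peaks, each drawn in bp from the ZIPIC middle with the ZIPIC interval (orange) above its Pita intervals (blue-grey), and the chromosome arm in brackets. In 11 of the 12 the Pita middles lie on both sides of the dashed line, and the Pita intervals of the seventh overlap each other (darker stretch).

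The opposite arrangement, 1 offset Pita peak over 2 ZIPIC peaks, had 9 cases, also picked out after the values were seen. The strongest Pita peak among them, chr2L:19575224-19576207 (113), overlapped ZIPIC peaks at chr2L:19574937-19575734 (21.2) and chr2L:19575937-19576284 (18.6), whose middles lay 380 bp below and 395 bp above its own. At chr2R:8088175-8088836 (61.3) ZIPIC peaks of 7.45 and 5.27 lay 207 bp below and 209 bp above the Pita middle. These 2 Pita peaks were flanked almost evenly, and in 6 others the ZIPIC middles lay on both sides at unequal distances, such as 451 bp below and 226 bp above at chr2L:16287626-16288331. In 1 of the 9, chr2R:19539962-19540590, both ZIPIC middles lay on the lower side, at 479 and 229 bp. There, and at chr3R:11099961-11100292 and chr3R:14919865-14920027, the ZIPIC peaks overlapped each other. Part of the placement lies in the rule, since the joined ZIPIC middle had to lie over 100 bp from the Pita middle.

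Offset pairs occurred on all 4 arms, as a larger share of overlapping pairs on chromosome 3 than on chromosome 2. They were 124 of 332 on 3R, 37.3% (32.1 to 42.8), and 92 of 258 on 3L, 35.7% (29.8 to 41.8). On 2R they were 78 of 268, 29.1% (23.7 to 34.9), and on 2L 57 of 220, 25.9% (20.3 to 32.2). The intervals of neighbouring arms in this order overlapped. The median offset did not follow the same order, at 226 bp on 3R, 178 bp on 3L, 174 bp on 2R and 226 bp on 2L. On the X chromosome, outside the rule, 65 of 239 pairs were over 100 bp apart, 27.2% (21.7 to 33.3).

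The distance to other peaks did not set the offset pairs clearly apart from the centred pairs. From the outer edges of a pair to the next peak of either list the median distance was 3614 bp for offset pairs (95% interval of the median from order statistics over pairs, 2370 to 4757 bp) and 4234 bp for centred pairs. A pair with a further overlapping peak has a distance of 0, and among offset pairs with 1 partner each way the median was 4763 bp. Another peak lay within 1000 bp of 120 offset pairs, 34.2% (29.2 to 39.4), and of 213 centred pairs, 29.3% (26.0 to 32.8), intervals that overlapped. A peak overlapping another of its own list was part of 10 offset pairs and of 16 centred pairs. In the lists as a whole such self-overlaps involved 20 ZIPIC and 50 Pita peaks on the 4 arms. The genes, promoters and CP190 sites at these regions were not analysed here.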

How the data were processed

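ChIP-seq of ZIPIC and of Pita in S2 cells gave 1 library each, with 1 input library. Per the study's methods, the authors aligned reads to dm3 with Bowtie, kept unambiguous unique reads, pooled samples of an antibody where needed, and called peaks against input. FastQC and SAMtools stand in the submitters' processing notes too, where a human build is listed beside dm3. Tool versions were not given in the sources used here. PeakRanger lists that the authors deposited give interval coordinates, an unadjusted p-value and an FDR per peak, and hold p-values up to 0.0001. The methods name MACS and PeakRanger and state a limit of p under 1e-05, which some of the listed peaks do not meet. The sizes of the lists also differ from the peak counts that the paper reports. Reads per peak are unknown. The methods state more unique reads for ZIPIC than for Pita, so strength was ranked within each list, except for the pairs ordered by the smaller −log10 p of their 2 peaks.

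Starts were read as 0-based and are printed from 1. Each autosomal Pita peak was joined to the ZIPIC peak of largest overlap (at least 1 bp), and members had middles over 100 bp apart. The members, measures and lists were chosen with earlier results of these data known. No test was run, because the rule used the same intervals. Shares have exact 95% binomial intervals. Pairs named were the 10 with the largest offset, the 10 strongest in both lists, in ZIPIC and in Pita, the 10 longest staggers and the 5 on each side of the limit. Regions with 2 partners were added later. Pairing and geometry were tested on simulated lists. Alternatives changed the limit, the overlap, the partner, the p threshold, the starting list and the edge tolerance. Motif searches and gene placement were planned and not run. The scripts ran in Python 3.11.15 with pandas 2.3.3, NumPy 2.4.6, SciPy 1.17.1 for binomial intervals and matplotlib 3.10.9 for figures.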

Additional observations from a re-analysis of the deposited data

How the results depend on the processing

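For 12 results, 124 values were recomputed under 14 alternatives, 1 of them (leaving out peaks that overlap their own list) chosen after seeing the data. Of these, 108 stayed within the 95% interval of the reported value, or within 1.5 times for the number of pairs, and 16 moved outside it. A change of direction was not scored. Most that moved did so by construction, with the limit on the distance of middles. With limits of 50, 150 and 200 bp the share of overlapping pairs that were offset was 46.4%, 22.5% and 16.9%, the median absolute offset 144.5, 254.5 and 299.75 bp, and the median ZIPIC width 635, 838 and 891.5 bp. Over 200 bp 182 pairs remained, and 18.1% of them had a peak with 2 partners. With edges taken as close within 10 or 50 bp, 35.9% or 73.8% of pairs had a nearly common edge. With p under 1e-05 in both lists the median ZIPIC −log10 p was 12.3, and without the strongest 5% of either list the median Pita −log10 p was 15.9. Among pairs with 1 partner each way the median distance to the next peak was 4763 bp. The share of pairs with Pita inside ZIPIC stayed between 48.8% and 51.9% under every alternative run on it. No paired analysis was possible because each protein had 1 library. With no replicates and no reads per peak, neither the spread between libraries nor the precision of an interval edge is known. A difference between the libraries cannot be told apart from a difference between the proteins.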
